A study of Vitis vinifera with 8 samples.

Results

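In deseeded grape berries, 95 of 25771 genes had higher transcript levels after 1 hour at 38 °C than at 16 °C both after and before véraison, the onset of ripening. A member had to be at least 1 unit higher at 38 °C at each stage on the scale log2(RPKM + 1), where RPKM is the number of reads scaled for the length of the gene and the size of the library. At each stage both libraries at 38 °C also had to lie above both at 16 °C, and their mean had to reach 5 RPKM. A total of 97 genes met these conditions, and 2 of them, HSP101 and CHI4C, were left out because they carry a gene symbol. The remaining 95 have a placeholder name or a bare gene number. The conditions use the heat difference at both stages, so the heat differences of the members are given as a description; how many of them a test calls is stated once, beside the share of all genes, and nothing is read from it.

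The plants were fruiting L1 Pinot Meunier microvines, potted grapevines of a dwarf line kept in a growth room at 16 °C. The 4 groups were post-véraison berries at 38 °C, post-véraison berries at 16 °C, pre-véraison berries at 38 °C and pre-véraison berries at 16 °C, with 2 biological replicates each. Post-véraison berries were 12 to 14 weeks and pre-véraison berries 5 to 6 weeks past flowering. Berries at 16 °C were taken at 9 AM, the room was then heated, and berries at 38 °C were taken at 10 AM, so that heat and the hour of sampling cannot be told apart in any heat difference below. No library of berries kept at 16 °C until 10 AM was analysed here. All groups share the line, the room and the light regime. The labels do not say how many plants or bunches went into a library.

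When plant cells are suddenly warmed, heat stress transcription factors are activated, bind short repeated elements in promoters and switch on genes for molecular chaperones, which keep other proteins from aggregating. Heat shock protein genes, many of them members of multigene families, are among the most strongly induced plant genes, and several heat stress transcription factor genes are themselves induced. Véraison is the point at which the grape berry softens, takes up sugar and, in dark cultivars, starts to colour.

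Of the 95 members, 84 were found in the RefSeq gene table of assembly ASM3070453v1, 83 of them as protein-coding genes and 1, LOC100266701, as a pseudogene. The other 11 were not matched and are called by their gene number. The table gives an informative synonym for 1 member: LOC100245740 is HsfA2, a heat stress transcription factor. It gives no protein names, so no role is stated for any other member. They are ordered here by level, by size of the rise and by position.

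The total read number behind the RPKM values, recovered from their steps, ran from 6047199 to 11243341 per library. A member was covered by a median of 174 reads in post-véraison berries at 38 °C, 38 in post-véraison berries at 16 °C, 1170.5 in pre-véraison berries at 38 °C and 19 in pre-véraison berries at 16 °C. In the last of these groups 34 members had under 10 reads in both libraries, so their level before véraison at 16 °C is known only roughly. The labels of stage were checked with 2 genes: GRIP22, a gene of the ripening berry, lay at 371 to 546 RPKM in the post-véraison libraries and 0.115 to 0.672 RPKM in the pre-véraison libraries, and PSBP1, a gene of the photosynthetic oxygen-evolving complex, lay at 17.1 to 27.4 RPKM in post-véraison and 453 to 622 RPKM in pre-véraison libraries. Berries are bulk tissue, so that fewer cells of a type and less RNA per cell cannot be told apart.

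Together the members made up a small part of the transcriptome at 16 °C and a visible part of it in heated green berries. Summed over the 95 members, the level was 3095 and 2721 RPKM in the post-véraison libraries at 38 °C, against 729 and 720 RPKM in the post-véraison libraries at 16 °C. Before véraison it was 23722 and 28694 RPKM at 38 °C, against 798 and 720 RPKM at 16 °C. As a share of all RPKM, the members took 0.448% and 0.392% at 38 °C and 0.105% and 0.104% at 16 °C after véraison, and 3.72% and 4.45% at 38 °C and 0.127% and 0.113% at 16 °C before it. The 4 unheated libraries were thus close to each other, and the heated pre-véraison libraries stood far above the heated post-véraison ones.

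**Figure D1:**
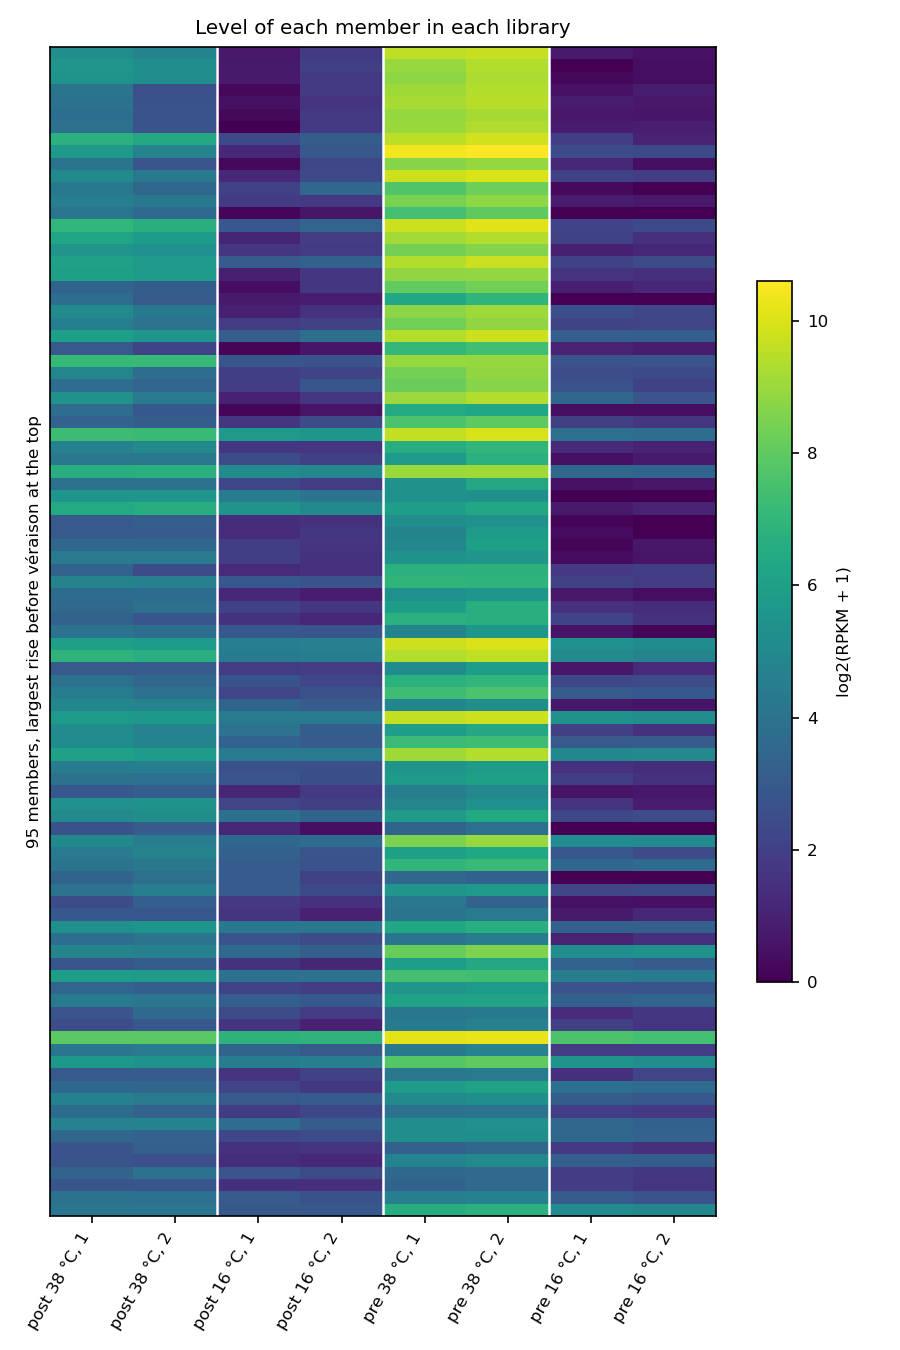
Heat map of the level of the 95 members (rows, ordered by their rise before véraison) in the 8 libraries (columns), coloured by log2(RPKM + 1). The pre-véraison libraries at 38 °C hold the highest levels, with a median member at 97.4 and 113 RPKM, and the post-véraison libraries at 38 °C come next, with a median member at 18.0 and 17.0 RPKM.

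A typical member lay low in unheated berries at both stages. The mean level of a member had a median of 18.2 RPKM in post-véraison berries at 38 °C, against 3.41 RPKM in post-véraison berries at 16 °C, and of 104 RPKM in pre-véraison berries at 38 °C, against 2.55 RPKM in pre-véraison berries at 16 °C. In all 4 libraries at 16 °C, 69 members were under 10 RPKM. In both libraries at 16 °C, 4 members were under 1 RPKM after véraison and 26 were before it.

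The 8 members with the highest mean level at 38 °C are shown because they carry much of the sum. They took 26.1% to 26.9% of the members' RPKM in the post-véraison and 30.5% to 31.6% in the pre-véraison libraries at 38 °C. LOC100249533 on chromosome 13 had 51.4 and 25.8 RPKM at 38 °C and 1.26 and 6.43 RPKM at 16 °C after véraison, and 1353 and 1557 RPKM at 38 °C and 4.49 and 4.03 RPKM at 16 °C before it. LOC100246843 on chromosome 10 had 242 and 234 RPKM at 38 °C and 114 and 119 RPKM at 16 °C after véraison, and 1158 and 1213 RPKM at 38 °C and 201 and 172 RPKM at 16 °C before it. These 2 genes reached like levels in heated green berries from starting levels far apart. LOC100246843 had the highest level of any member at 16 °C at both stages, and its rise of 1.02 ± 0.11 (SE) log2 units after véraison was the second smallest.

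Gene 100258676 had 128 and 101 RPKM at 38 °C and 6.59 and 10.1 RPKM at 16 °C after véraison, and 880 and 1107 RPKM at 38 °C and 3.40 and 4.17 RPKM at 16 °C before it. LOC100265651 on chromosome 6 had 155 and 143 RPKM at 38 °C and 51.9 and 47.9 RPKM at 16 °C after véraison, and 804 and 993 RPKM at 38 °C and 14.3 and 13.2 RPKM at 16 °C before it. LOC100253548 on chromosome 16 had 107 and 83.6 RPKM at 38 °C and 4.01 and 7.81 RPKM at 16 °C after véraison, and 746 and 952 RPKM at 38 °C and 2.91 and 1.02 RPKM at 16 °C before it. In all 3 of these genes every pre-véraison library at 38 °C lay above every post-véraison library at 38 °C, while the unheated level was higher after véraison. The other 3 of the 8 highest, LOC100263355, LOC100242821 and LOC100253085, lie on chromosome 13 and had 788 to 1030 RPKM in pre-véraison berries at 38 °C.

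**Figure D2:**
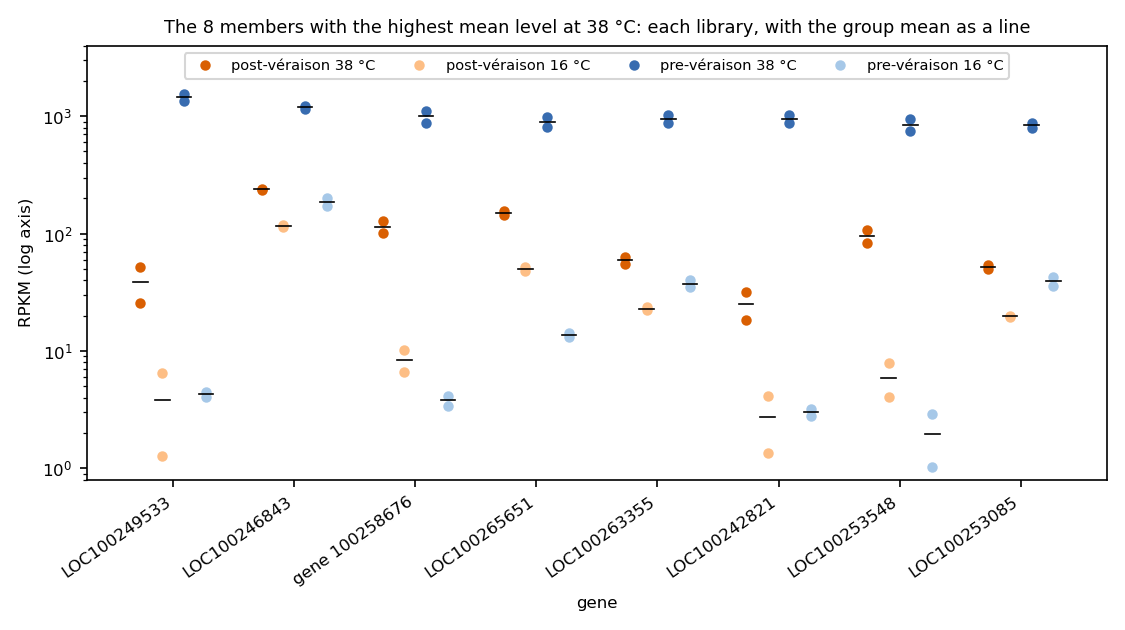
Level in RPKM (log axis) of the 8 members with the highest mean level at 38 °C, with 1 point per library and a line at the mean of each group of 2 libraries. In each of the 8 genes the pre-véraison libraries at 38 °C are highest, and LOC100246843 stands out by its level in unheated berries, 114 and 119 RPKM after véraison and 201 and 172 RPKM before it.

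The rise with heat was 1.01 to 4.58 log2 units after véraison, with a median of 1.61, and 1.68 to 8.97 log2 units before it, with a median of 4.82. Over all 16777 genes tested the median difference was 0.025 after and -0.09 before véraison. A rise of 3 log2 units or more was seen in 15 members after véraison and in 74 before it, and 60 members rose by less than 2 units after véraison. Members with a large rise before véraison tended to have a large one after it (Pearson r 0.71, Spearman rho 0.72, over 95 members that share the 8 libraries and were selected on both values). By limma's test with Benjamini-Hochberg adjustment, 83 of the 95 were called higher at 38 °C after véraison, against 1.09% of all genes tested, and 95 were called before it, against 7.96%. The rule used these differences, so nothing is read from those counts.

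The 4 members with the largest rise at the stage where they rose less all had heated levels well clear of unheated ones. LOC100260747 on chromosome 1 had 64.3 and 53.4 RPKM at 38 °C and 0.922 and 2.22 RPKM at 16 °C after véraison, and 455 and 467 RPKM at 38 °C and 2.11 and 1.81 RPKM at 16 °C before it. HsfA2 (LOC100245740, chromosome 4) had 73.8 and 57.1 RPKM at 38 °C and 1.12 and 2.75 RPKM at 16 °C after véraison, and 562 and 658 RPKM at 38 °C and 3.13 and 1.69 RPKM at 16 °C before it. The ratio of the means at 38 °C over 16 °C was 33.9 after and 252 before véraison for HsfA2, and 37.5 after and 235 before véraison for LOC100260747.

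LOC100261077, also on chromosome 1, was the steadiest of the 4 between replicates. It had 138 and 140 RPKM at 38 °C and 6.22 and 5.73 RPKM at 16 °C after véraison, and 505 and 490 RPKM at 38 °C and 5.49 and 5.54 RPKM at 16 °C before it. LOC100250883 on chromosome 4 had 44.2 and 35.8 RPKM at 38 °C and 0.690 and 2.51 RPKM at 16 °C after véraison, and 447 and 626 RPKM at 38 °C and 0.186 and 0.320 RPKM at 16 °C before it. The log2 rises of the 4 genes were 4.07 to 4.58 after véraison and 6.26 to 8.73 before it. The largest rises before véraison were 8.97 log2 units in LOC100265661 and 8.96 in LOC100249153.

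A set of 5 members was listed at 0 in both pre-véraison libraries at 16 °C, where the rise can be given only as a lower bound. LOC100254252 on chromosome 4 had 174 and 250 RPKM in pre-véraison berries at 38 °C and was at least 746-fold higher than a floor of 3 reads over both libraries at 16 °C. LOC100261109, also on chromosome 4, had 77.8 and 121 RPKM there and was at least 305-fold higher. The bound was at least 39.1-fold for LOC100262187, at least 37.6-fold for LOC100253072 and at least 8.18-fold for gene 100259533. After véraison none of the 5 was at 0 in both unheated libraries.

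Members near the edge of the rule show what the selection leaves out. After véraison, LOC100259363 with a rise of 1.01 and LOC100246843 with 1.02 were just inside, and gene 100255299 with 0.997 and LOC100264685 with 0.995 were just outside. Before véraison, the members with the smallest rises were LOC100242832 with 1.68 and gene 100267806 with 1.69, and LOC100245897 with 0.99 and LOC100261290 with 0.93 were just outside. LOC100245897 and LOC100261290 rose by 3.145 and 2.565 log2 units after véraison, more than before it and so unlike every member. Gene 100255299 and LOC100264685 rose by 2.673 and 1.857 before véraison, more than after it. With the outside genes named here counted, 201 genes missed the rule only by the size of the rise after véraison, and 5 only by the size of the rise before it. Seen by stage, 120 genes met the rule after véraison, of which 79.2% are members, and 514 met it before véraison, of which 18.5% are members.

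**Figure D3:**
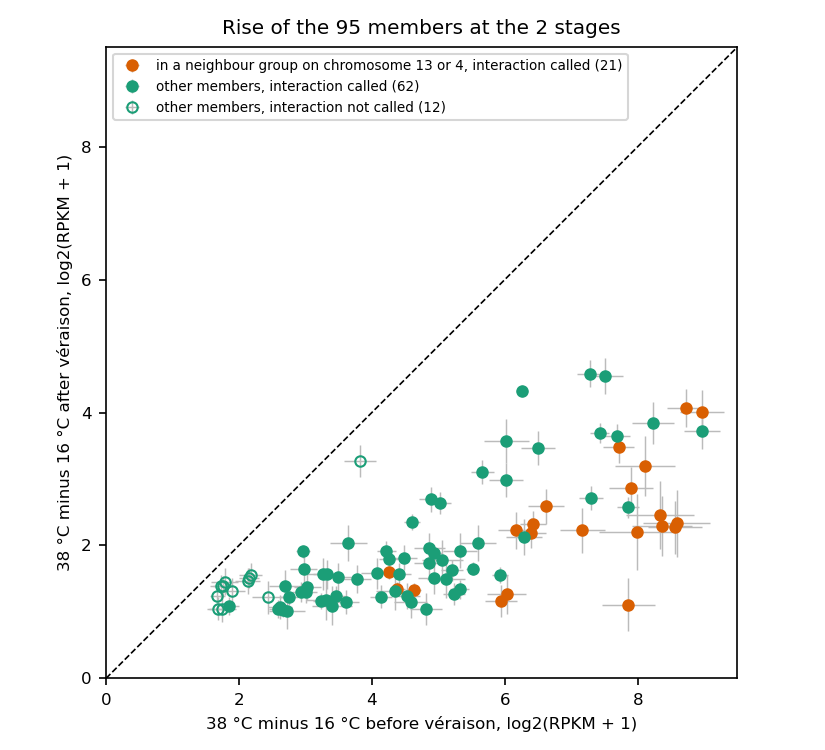
Rise of each of the 95 members after véraison (vertical axis) against its rise before véraison (horizontal axis), both as the difference of mean log2(RPKM + 1) at 38 °C and 16 °C, with a line of equal rises. All 95 points lie below the line; 83 differ between the stages by limma's test of the difference, 21 of them in neighbour groups on chromosomes 13 and 4, and 12 do not pass it.

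The rise was smaller after véraison than before it in all 95 members. The rule asks the same of both stages and so sets no sign for this difference, but it rests on the same libraries, so that the test is read as a description of them. The difference of the rises, after minus before véraison, ran from -6.75 to -0.33 log2 units with a median of -2.91, where the median over all genes tested was 0.12. By limma's test of this difference with Benjamini-Hochberg adjustment, 83 of the 95 members (87.4%) passed in the direction of a smaller rise after véraison, against 3.53% of all genes, and 0 of 95 in the other direction, against 3.95% of all genes. At an unadjusted p under 0.05 in limma's test, 90 members passed, all with a smaller rise after véraison. The share of all genes at this unadjusted threshold was not examined, so the shares given for the adjusted p do not apply to that count. With each library scaled to the median ratio of its genes, 81 members passed with a smaller rise and 0 with a larger one, against 3.77% and 2.5% of all genes. The rise after véraison was 0.141 to 0.854 times that before it on the log2 scale, with a median of 0.395. The shares of all genes are background, as those genes were not chosen for a rise with heat. Rises were more frequent before véraison over all genes too: 514 genes met the rule before véraison and 120 after it, with the 95 members included in both counts. Limma's test with the same adjustment called 7.96% of all genes higher with heat before véraison and 1.09% after it. Whether the members differ in this from other genes that rise with heat was not tested.

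The 6 members with the most negative difference all lie in neighbour groups on chromosomes 4 and 13. LOC100266315 on chromosome 4 had 18.5 and 10.7 RPKM at 38 °C and 3.28 and 10.4 RPKM at 16 °C after véraison, and 212 and 305 RPKM at 38 °C and 0.211 and 0 RPKM at 16 °C before it. After véraison its lower heated library was close to its higher unheated library, while before véraison the groups were far apart. Its rise after véraison, 1.110 ± 0.396 (SE) log2 units, is thus imprecise. The difference of its rises was -6.75 ± 0.56 (SE), with a limma adjusted p of 6.7e-05. The other 5, LOC100259921, LOC100244376, LOC100265108, LOC100266701 and LOC100261497, lie on chromosome 13 and had differences of -6.30 ± 0.57, -6.26 ± 0.71, -6.07 ± 0.64, -5.88 ± 0.73 and -5.79 ± 0.81 (SE), with limma adjusted p from 0.00012 to 0.0019.

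These 5 genes had like levels in every library. After véraison they lay between 13.4 and 15.8 RPKM in replicate 1 and between 5.04 and 6.00 RPKM in replicate 2 at 38 °C, against 0 to 0.386 RPKM in replicate 1 and 2.10 to 3.79 RPKM in replicate 2 at 16 °C. Before véraison they lay between 414 and 601 RPKM in replicate 1 and between 487 and 710 RPKM in replicate 2 at 38 °C, against 0.432 to 1.28 RPKM in replicate 1 and 0.367 to 0.846 RPKM in replicate 2 at 16 °C. Their rises after véraison were 2.199 to 2.459 log2 units, with SE from 0.404 to 0.575, and are imprecise too. Their recovered lengths are 634 to 774 bases. Whether they are near-identical copies that share reads cannot be read from the files, and how reads that match several genes were assigned is not given in the sources used here, so their separate values are uncertain.

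The difference of rises was not called in 12 members, with values from -1.22 to -0.33 log2 units and limma adjusted p from 0.065 to 0.56. Their rises were 1.05 to 3.27 log2 units after véraison and 1.68 to 3.83 before it. LOC100245574 on chromosome 14 had the largest rise after véraison among them. It had 40.0 and 41.6 RPKM at 38 °C and 3.67 and 3.04 RPKM at 16 °C after véraison, and 27.8 and 38.5 RPKM at 38 °C and 2.12 and 0.810 RPKM at 16 °C before it, with a difference of rises of -0.56 ± 0.34 (SE). Its heated libraries at both stages were close to each other, and those after véraison were the higher.

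LOC100267577 on chromosome 7 had the difference nearest to 0. It had 5.74 and 8.61 RPKM at 38 °C and 1.88 and 1.99 RPKM at 16 °C after véraison, and 8.64 and 10.2 RPKM at 38 °C and 2.39 and 1.68 RPKM at 16 °C before it. Its difference of rises was -0.33 ± 0.29 (SE). LOC100247349, LOC100241084, LOC100242832 and gene 100246508 had differences of -0.34 ± 0.24, -0.37 ± 0.22, -0.44 ± 0.16 and -0.58 ± 0.28 (SE). Single libraries moved these small differences: gene 100246508 had -0.94, with a limma adjusted p of 0.024, without post-véraison replicate 2 at 16 °C and -0.23 without replicate 1 there, and LOC100245574 had -0.95 without pre-véraison replicate 1 at 16 °C and -0.17 without replicate 2 there. LOC100267577 had -0.07 without post-véraison replicate 1 at 38 °C and -0.59 without replicate 2 there, and LOC100247349 had -0.50 without pre-véraison replicate 1 at 16 °C and -0.19 without replicate 2 there. Not passing the test does not show that these genes rose equally at both stages.

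Position on the chromosomes was not used by the rule. The 84 placed members lie on 17 chromosomes, with 15 on chromosome 13 and 12 on chromosome 4. Of these 84 members, 24 (28.6%) have another member as their immediate neighbour in the order of the 29591 genes that the RefSeq table places, against 137 (0.464%) of the placed genes that are not members. With up to 5 other genes allowed between members, a limit chosen after the values were seen, 33 members fall into 10 groups, 7 of which are pairs. Members of such a group may be copies of 1 gene and are not independent of each other.

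The largest group holds 9 members on chromosome 4, with 4 other genes between them. Of those 4, 2 had values: the pseudogene LOC100250954 rose by 1.52 log2 units after and 4.76 before véraison but stayed under 5 RPKM in heated post-véraison berries, and LOC100268136 differed by 0.85 after and 5.86 before véraison. Both are therefore no members although heated levels lay above unheated ones. LOC100243983 was the highest of the group, with 62.1 and 45.9 RPKM at 38 °C and 8.28 and 14.2 RPKM at 16 °C after véraison, and 679 and 899 RPKM at 38 °C and 8.23 and 8.33 RPKM at 16 °C before it.

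A second group holds 7 members on chromosome 13, among them LOC100249533, LOC100242821 and the 5 genes of like level. Of the 3 other genes between them, 2 had values, and both had low levels: LOC100244500 differed by 0.34 log2 units after and -0.12 before véraison and LOC100254809 by 0.18 after and 0.86 before it. Neither exceeded 1.79 RPKM in any library, and LOC100254809 had 1.13 and 1.67 RPKM at 38 °C and 0.391 and 0.252 RPKM at 16 °C before véraison, with no overlap. Chromosome 13 holds a further group of 3 members, LOC100261583, LOC100249611 and LOC100254733, and the pair LOC100253085 and LOC100263355.

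**Figure D4:**
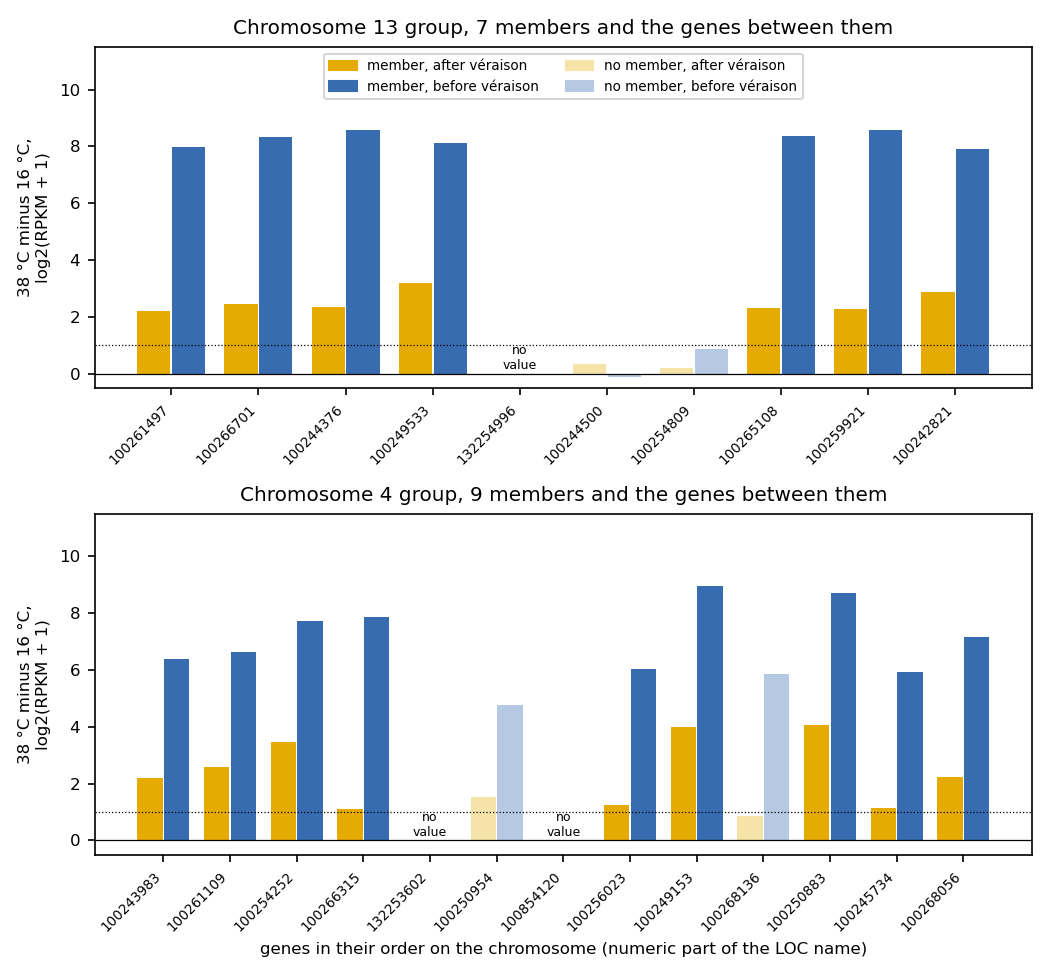
Difference between 38 °C and 16 °C in mean log2(RPKM + 1), after and before véraison, for the genes of the 9-member group on chromosome 4 and the 7-member group on chromosome 13, in their order on the chromosome and not to distance. On chromosome 4 the measured genes between the members differ with heat too (4.76 and 5.86 before véraison), and on chromosome 13 they differ by -0.12 and 0.86 before véraison, under the 1 unit that the rule asks for.

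The 21 members of the groups on chromosomes 13 and 4 rose by a median of 2.27 log2 units after and 7.71 before véraison, and the other 74 members by 1.56 after and 4.24 before it. The difference of rises was called in 21 of the 21, with a median of -4.78, and in 62 of the 74, with a median of -2.34. Their recovered lengths differed as well, with a median of 783 bases in the 21 and 1234 bases in the 74, against 1499 bases over all genes tested. The 2 post-véraison replicates stood apart in the 21 grouped members: replicate 2 was above replicate 1 in 0 of 21 at 38 °C and in 20 of 21 at 16 °C, where 50.1% and 54.1% of all genes tested were. In pre-véraison berries replicate 2 was the higher in 21 of 21 at 38 °C, against 38% of all genes, and in 8 of 21 at 16 °C, against 37.4%. Nearly all members shared the order in pre-véraison berries at 38 °C: replicate 2 was the higher in 67 of the other 74 too. The 6 members with the most negative differences of rises over all 8 libraries, all from these groups, were fitted again without post-véraison replicate 2 at 16 °C. Their differences were then -6.04 to -4.77 log2 units. Whether they were still the 6 most negative there was not examined.

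In heated berries most members were lower after véraison than before it. The levels at both temperatures are part of the rule, so the counts of stage differences here and at 16 °C describe the chosen genes, and the shares of all genes beside them are background. By limma's test with Benjamini-Hochberg adjustment, 85 of the 95 members (89.5%) were lower and 1 was higher in post-véraison than in pre-véraison berries at 38 °C, where 53% of all genes tested were lower and 17.2% higher. The median difference was -2.39 log2 units for the members and -0.45 for all genes. The shift of all genes depends on the scaling of the libraries: with the median-ratio scaling, the median of all genes was -0.02, that of the members -1.90, and 77 members were lower and 4 higher, against 34.6% and 32.3% of all genes. The libraries of the 2 stages did not overlap in 87 members with lower post-véraison values, against 62.5% of all genes, and in 3 with higher ones, against 23.2%.

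A higher mean in post-véraison than in pre-véraison berries at 38 °C was seen in 5 members, LOC100265533, LOC100262187, LOC100245574, LOC100253480 and gene 100259533. LOC100265533 on chromosome 6 had 89.2 and 97.0 RPKM in post-véraison and 60.5 and 78.4 RPKM in pre-véraison berries at 38 °C. The 4 libraries did not overlap, and the difference of 0.43 ± 0.17 (SE) log2 units had a limma adjusted p of 0.042. This call was lost, with 0 members called higher, in the fits with a replicate block, without a trend, without a filter, with a pseudocount of 0.1, and without post-véraison replicate 1, post-véraison replicate 2 or pre-véraison replicate 1 at 38 °C. For the other 4 genes the adjusted p of limma was 0.13 to 0.75.

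In unheated berries members were found on both sides of the stage difference. By limma's test with Benjamini-Hochberg adjustment, 39 of the 95 members (41.1%) were higher and 20 (21.1%) lower in post-véraison than in pre-véraison berries at 16 °C, where 14.9% of all genes tested were higher and 57% lower. The median difference was 0.34 log2 units for the members and -0.52 for all genes. With the median-ratio scaling, which sets the median of all genes to 0, 53 members were higher and 10 lower, against 32.1% and 33.5% of all genes, and the members' median was 0.66. The libraries did not overlap in 43 members with higher post-véraison values, against 19.5% of all genes, and in 26 with lower ones, against 66.4%. Of the members higher after véraison at 16 °C, 31 were lower after véraison at 38 °C, and all 20 members that were lower at 16 °C were lower at 38 °C too. The share of all genes with such pairs of calls was not examined. Taken singly, 57% of all genes were lower after véraison at 16 °C and 53% at 38 °C, so nothing particular to the members is read from these counts.

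The members with the largest excess in unheated post-véraison berries had few reads or none in unheated green berries. LOC100265533 had 44.2 and 32.8 RPKM in post-véraison and 0.709 and 1.01 RPKM in pre-véraison berries at 16 °C, a difference of 4.40 ± 0.17 (SE) log2 units with a limma adjusted p of 1.4e-08. LOC100262187 on chromosome 1 had 20.9 and 15.5 RPKM in post-véraison berries at 16 °C and was listed at 0 in both pre-véraison libraries, so it was at least 18.2-fold higher. LOC100266315 had 3.28 and 10.4 RPKM in post-véraison and 0.211 and 0 RPKM in pre-véraison berries at 16 °C, and gene 100257032 had 9.79 and 7.27 RPKM in post-véraison and 0.615 and 0.528 RPKM in pre-véraison berries at 16 °C. In all 4 genes every post-véraison library lay above every pre-véraison library at 16 °C.

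At the other end, LOC100242832 on chromosome 13 had 6.73 and 6.58 RPKM in post-véraison and 33.6 and 29.8 RPKM in pre-véraison berries at 16 °C, a difference of -2.09 ± 0.11 (SE) log2 units with a limma adjusted p of 8.5e-08. At 38 °C it had 17.0 and 17.0 RPKM in post-véraison and 97.4 and 110 RPKM in pre-véraison berries. The stage difference of this gene was -2.09 log2 units at 16 °C and -2.54 at 38 °C. Its difference of rises, -0.44 ± 0.16 (SE), was not called on the scale log2(RPKM + 1). With a pseudocount of 5 RPKM it was called (-0.65, limma adjusted p 0.014). LOC100250782 on chromosome 5, LOC100241084 on chromosome 13 and LOC100241028 on chromosome 2 differed by -1.91 ± 0.17, -1.87 ± 0.15 and -1.85 ± 0.21 (SE) at 16 °C, with limma adjusted p from 2e-06 to 1.8e-05. LOC100250782 had 11.2 and 8.38 RPKM in post-véraison and 36.0 and 42.7 RPKM in pre-véraison berries at 16 °C.

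**Figure D5:**
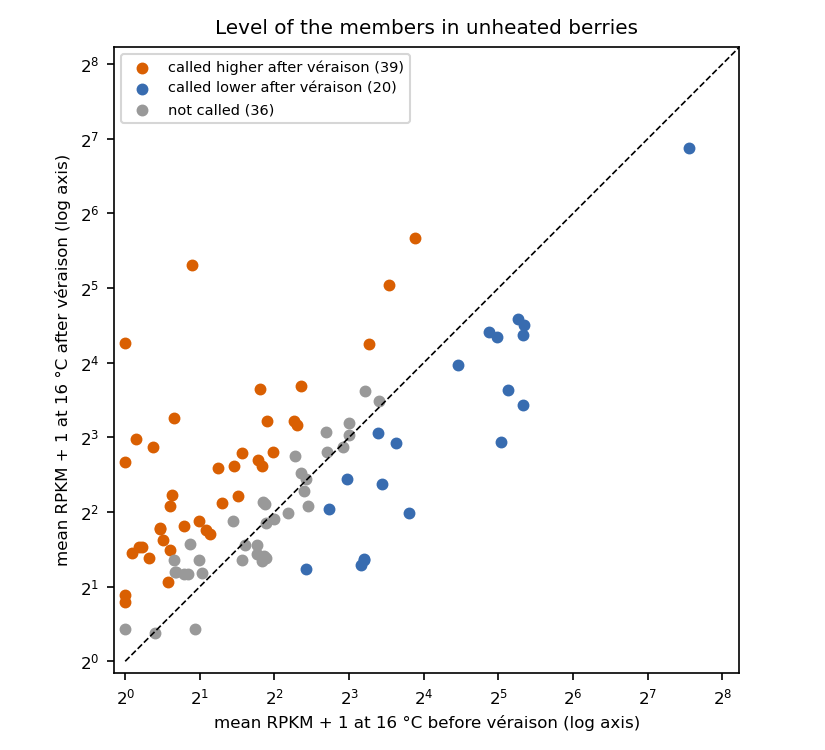
Mean RPKM + 1 of each of the 95 members at 16 °C after véraison (vertical, log axis) against before véraison (horizontal, log axis), with a line of equal levels. By limma's test, 39 members were higher and 20 lower after véraison on the values as deposited, and 36 did not pass.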

How the data were processed

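Messenger RNA of deseeded berries was sequenced single-end in 8 libraries, 2 for each of 4 groups. The authors deposited 1 RPKM value per gene and library; Bowtie 0.12.7 and TopHat 1.2.0 are named in the submitters' processing notes, whereas build, annotation and counting tool were not given in the sources used here. RPKM divides by gene length and by library size, so a few very high genes lower all others. RPKM steps gave whole reads (within 0.001 read, and a length whole within 0.02 base) for 20695 of 20845 genes (99.3%) above 0 in at least 3 libraries; lengths are known up to a common divisor.

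Genes that reached 1 RPKM in 2 or more libraries (16777) were fitted with limma 3.58.1 (R 4.3.3) as 4 group means on log2(RPKM + 1), with a mean-variance trend, 4 residual and 6.06 prior degrees of freedom. Benjamini-Hochberg adjustment ran over all genes, with a threshold of 0.05. Fold changes on this scale understate changes of low genes. Ratios against groups at 0 use a floor of 3 reads over the group and cover counting error only. Alternatives changed the pseudocount, filter, scaling, trend, block, read model and single libraries. The fit and the read recovery were tested on simulated data.

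Of the gene numbers, 18647 were matched to RefSeq and 7124 were not. The members and the lists were chosen with earlier results of these data known. Named genes are the 8 highest at 38 °C, the 6 at each end of the difference of rises, the 4 with the largest smaller rise, the 4 at each end of the stage difference at 16 °C, 2 on each side of each threshold, and members of the largest neighbour groups; genes named beyond these were chosen after their values were seen.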

Additional observations from a re-analysis of the deposited data

Results flagged for a closer look

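By limma's test of the difference of rises, 83 of the 95 members passed, in each case with the smaller rise after véraison. The test uses the same libraries and heat differences that chose the members, so it describes them and is no independent evidence. The difference after minus before véraison was -6.75 log2 units in LOC100266315, -6.30 in LOC100259921, -6.26 in LOC100244376, -6.07 in LOC100265108, -5.88 in LOC100266701 and -5.79 in LOC100261497, the 6 most negative of the members. No group of libraries was large enough to look for a single library far from the others.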

How the results depend on the processing

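The number of genes that meet the rule, 95, was 57 with a pseudocount of 5 RPKM and 111 with 0.1 RPKM. It was 57 with a rise of at least 1.5 log2 units and 96 with the median-ratio scaling. With a mean at 38 °C of at least 10 RPKM it was 70, and with at least 1 RPKM it was 113. When each library was left out in turn, it was 93 to 100. The difference of rises was called in 75 to 83 members when each library was left out and in 62 to 86 over all alternatives, against 83. The stage difference was called in 52 to 64 members at 16 °C (45 to 64 over all alternatives, against 59) and in 82 to 87 at 38 °C (65 to 88 over all alternatives, against 86) when each library was left out. A called stage difference was common in general: of all 16777 genes tested, 12055 had one at 16 °C and 11789 at 38 °C in the main fit. Leaving out the 21 members of the chromosome 13 and 4 groups, an alternative chosen after seeing the data, left 62 of 74 called for the difference of rises, 52 for the stage at 16 °C and 65 for the stage at 38 °C, fewer because fewer members were counted. LOC100241084 turned to a difference of rises of 0.021 with voom on the recovered reads (limma adjusted p 0.98); it was the 1 member that did so there, and the sign was kept by 95 of 95 members in each other fit. With a pseudocount of 5, LOC100241084 and LOC100242832 were called, at -0.71 and -0.65 (limma adjusted p 0.014 for both), and gene 100246508 was called at -0.94 (0.024) without post-véraison replicate 2 at 16 °C. With a pseudocount of 0.1, 76 members were called, against 83. Among the 6 members at each end of the difference of rises, 2 calls were lost there. Their differences were of like size, -5.16 for LOC100266701 (limma adjusted p 0.12) and -5.83 for LOC100261497 (0.058). Over all genes, 1254 had a called difference of rises, and 707, 753 and 676 without post-véraison replicate 1 at 38 °C, post-véraison replicate 2 at 38 °C and pre-véraison replicate 2 at 38 °C. With the replicate number as a block, 81 members were called for the difference of rises. For the stage, 59 were called at 16 °C and 85 at 38 °C. Over all genes, libraries of the same number did not deviate together (r from -0.05 to 0.03). Over the 95 members, r was -0.70 between the post-véraison groups at 38 °C and 16 °C and -0.11 to 0.13 between the other groups. Members thus tended to deviate in opposite directions in the 2 post-véraison groups. The block fits the same shift in every group, so it cannot take up such opposite deviations. The planned searches for promoter motifs and protein patterns were not run. With 2 libraries a group and a median of 19 reads per member in pre-véraison berries at 16 °C, levels there are imprecise. The cause of these changes was not tested.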
